A study of Mus musculus with 10 samples.

Results

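Microexons are the shortest exons of the mouse genome, and the ones described here are those that the study's own list of neural microexons does not hold. They were chosen from the deposited table of 192593 exon events as cassette exons of 3 to 27 nt, outside that list, with 10 or more reads, inclusion and exclusion summed, in every one of 6 N2A samples. That rule gave 1831 microexons in 1531 genes, out of 3652 microexon events in the table. Another 1595 microexons outside the list fell below 10 reads in at least 1 sample, and 221 of the listed ones had enough reads. At the edge of the rule, only a few microexons on each side were looked at. Those with 10 reads in their lowest sample had a mean percent spliced in (PSI) from 0 to 98.5%. Those with 9 reads ran from 0 to 99.6%. PSI is the share of transcripts of a gene that carry the exon.

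The samples came from a pair of experiments on polyadenylated RNA, sequenced from stranded libraries with long inserts. In the first, cells of the mouse neuroblastoma line N2A were transfected for 72 h with 40 nM of an siRNA pool against Qk (siQk, 3 biological replicates) or with 40 nM of a non-targeting pool (siNT, 3 biological replicates). In the second, glutamatergic neurons differentiated in culture from mouse embryonic stem cells received 100 uM cycloheximide for 12 h at day 7 in vitro (2 biological replicates) or no drug (2 biological replicates). Cycloheximide blocks translation, and with it the decay of transcripts that carry a premature stop codon. The deposited neuron values are combined over replicates by the authors, so they have no spread, and their read depth is unknown. N2A is a tumour line and not a neuron. In the N2A samples 11 of the 13 neuroblastoma markers in the table reached 1 CPM (junction reads of a gene scaled to a common library total), Nefl and Nefm were below 0.1 CPM, none of 4 astrocyte or 3 immune markers reached 1 CPM, 2 of 4 oligodendrocyte and 1 of 5 fibroblast markers did, and 3 of 5 mature neuron markers did, with Rbfox3 below 0.1 CPM. The neuroblastoma markers summed to 2194 to 2359 CPM in siQk and 1850 to 1885 CPM in siNT, and the mature neuron markers to 310 to 329 CPM in siQk and 343 to 387 CPM in siNT. The part of these gaps in the results was not tested.

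Microexons add a few amino acids to a protein, often at a surface where it binds a partner, and most known neural ones keep the reading frame. Their inclusion in neurons depends on the activators Srrm3 and Srrm4, while Ptbp1 and Ptbp2 hold many of them out. Quaking (Qk) is an RNA-binding protein of the STAR family that binds ACTAA-like sites near exons and can favour or block their inclusion.

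The sequences that carry the findings are shown first, taken by exact exon ends from GENCODE M21 transcripts of the mm10 assembly (GRCm38) and written 5′ to 3′ on the transcript strand. Capitals mark the microexon. Lower case letters are the neighbouring exon sequence on each side. The first set holds microexons that rose in siQk, in the order of the size of the change.
Ank2 12 nt, chr3:126979256-126979267, minus strand: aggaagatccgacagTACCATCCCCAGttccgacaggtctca
Clasp1 24 nt, chr1:118512705-118512728, plus strand: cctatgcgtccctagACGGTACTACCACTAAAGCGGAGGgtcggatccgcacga
Dst 18 nt, chr1:34296742-34296759, plus strand: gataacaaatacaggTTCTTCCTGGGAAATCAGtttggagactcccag
Pus7 18 nt, chr5:23763334-23763351, minus strand: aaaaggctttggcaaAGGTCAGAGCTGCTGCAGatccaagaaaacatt

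The next set holds microexons that fell in siQk.
Map3k6 24 nt, chr4:133243053-133243076, plus strand: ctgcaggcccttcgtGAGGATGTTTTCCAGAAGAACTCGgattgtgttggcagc
Mroh1 27 nt, chr15:76432372-76432398, plus strand: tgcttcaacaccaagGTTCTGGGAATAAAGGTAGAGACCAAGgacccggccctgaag
Mark3 27 nt, chr12:111651958-111651984, plus strand: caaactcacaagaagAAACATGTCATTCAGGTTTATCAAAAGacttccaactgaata
Incenp 12 nt, chr19:9883192-9883203, minus strand: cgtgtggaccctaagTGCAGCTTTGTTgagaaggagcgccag

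The last set holds related or contrasting microexons described further on: exons of Clasp2 and Mark2, the sister genes of Clasp1 and Mark3, then exons that were high in untreated neurons and under 4% on average in siNT cells, then exons that differed with cycloheximide.
Clasp2 24 nt, chr9:113858581-113858604, plus strand: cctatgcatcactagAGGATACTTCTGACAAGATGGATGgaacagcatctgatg
Mark2 27 nt, chr19:7279986-7280012, minus strand: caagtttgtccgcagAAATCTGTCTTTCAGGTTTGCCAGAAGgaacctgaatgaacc
Cyth2 3 nt, chr7:45808730-45808732, minus strand: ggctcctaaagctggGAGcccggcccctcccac
Snap91 6 nt, chr9:86809651-86809656, minus strand: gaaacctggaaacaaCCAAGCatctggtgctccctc
Cacna1b 12 nt, chr2:24656711-24656722, minus strand: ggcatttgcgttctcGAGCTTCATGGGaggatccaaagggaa
Tenm4 21 nt, chr7:96854717-96854737, plus strand: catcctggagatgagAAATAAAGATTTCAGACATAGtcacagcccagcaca
Csnk1g1 24 nt, chr9:66035050-66035073, plus strand: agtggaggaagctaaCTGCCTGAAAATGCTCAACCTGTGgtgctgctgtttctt
Bicdl1 12 nt, chr5:115672144-115672155, minus strand: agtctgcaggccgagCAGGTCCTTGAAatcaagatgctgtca
Clasp2 27 nt, chr9:113862436-113862462, plus strand: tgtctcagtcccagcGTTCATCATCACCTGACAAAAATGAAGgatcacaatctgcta

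Most microexons outside the list were skipped in N2A cells. Over the 6 samples, 812 of 1831 (44.3%) had no inclusion read and 470 had a mean PSI under 2%, so that 70.0% lay under 2%. Only 136 had a mean PSI of 2 to 50% and 102 of 50 to 98%, while 311 (16.99%) lay over 98%. The listed neural microexons were spread the other way: of 221, 5 had no inclusion read, 14 lay under 2%, 82 at 2 to 50%, 90 at 50 to 98% and 30 over 98%. Of 107520 cassette exons longer than 27 nt, 9.90% lay under 2%, 11.6% between 2 and 98% and 78.5% over 98%. For a member with no inclusion read, 3 reads of its total set the upper limit of PSI; the median limit was 0.236% (range 0.00267 to 3.09%) at a median of 1270.5 reads over the 6 samples. These limits cover counting error only.

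Length went with level. Members of 3 to 15 nt numbered 1216, of which 1071 lay under 2% and 54 over 98%. Members of 16 to 27 nt numbered 615, of which 211 lay under 2% and 257 over 98%. The 3 nt class held 427 members, 407 of them under 2%, against 3 microexons of 3 nt in the list. The median length was 6 nt for members with no inclusion read, 9 nt under 2%, 17 nt at 2 to 50%, 21.5 nt at 50 to 98% and 23 nt over 98%, and 12 nt for all members against 18 nt for the list.

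**Figure D1:**
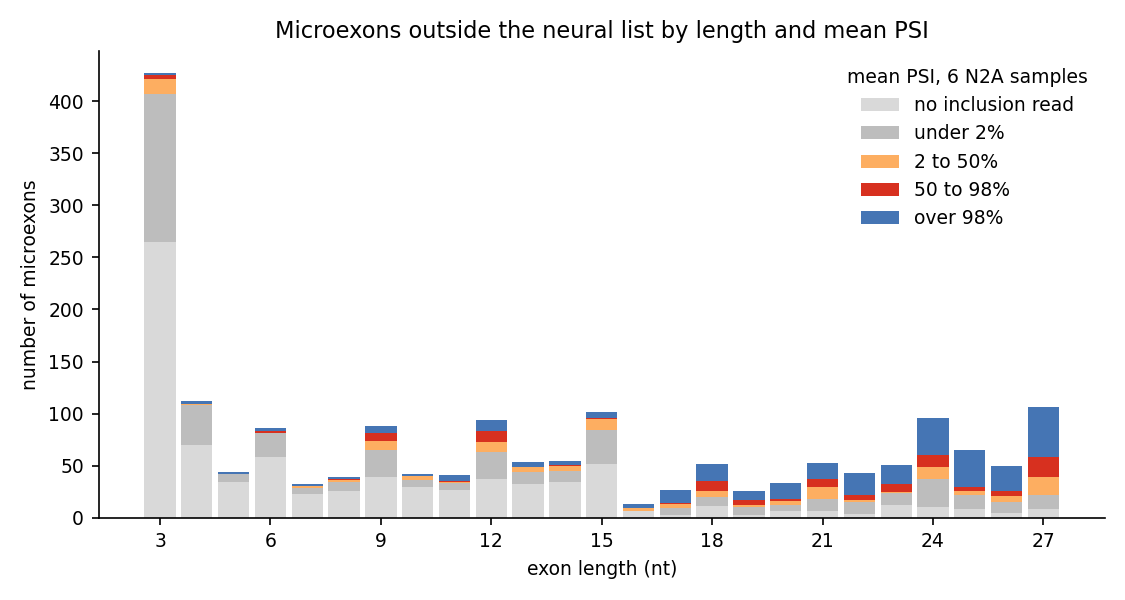
Number of microexons outside the list (vertical axis) at each exon length in nt (horizontal axis), coloured by the mean PSI over the 6 N2A samples. The 3 nt class is the tallest with 427 microexons, 407 of them under 2%, and most of the 311 microexons over 98% are 16 to 27 nt long.

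Reading frame and annotation also differed between the levels. A length that is a multiple of 3, which keeps the reading frame, was found for 1104 members (60.3%), for 83.3% of the list and for 38.5% of longer exons. By level the share was 60.0% with no inclusion read, 66.0% under 2%, 66.9% at 2 to 50%, 68.6% at 50 to 98% and 46.9% over 98%. Exons with exactly these ends stood in GENCODE M21 for 487 members (26.6%), against 80.1% of the list. That share was 8.25% for members with no inclusion read and 7.66% for those under 2%, but 44.9% at 2 to 50%, 79.4% at 50 to 98% and 77.8% over 98%. Of the 487, 435 were coding, 10 partly coding, 20 in a non-coding part of a coding transcript and 22 in a non-coding transcript. The introns around members had a median of 1130 nt upstream and 1215 nt downstream, against 1447 nt and 1338 nt for the list.

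Some M21 transcripts run through a microexon into its introns, and these gave the splice site letters for 217 members. AG stood before the exon in 215 and GT after it in 209, GC after it in 6, and 213 had AG before with GT or GC after. Of 84 such members with no inclusion read, 83 had such a pair, so these letters were present at exons that N2A cells skipped. The letters describe the window and say nothing of use.

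Qk itself was low in every siQk sample. Its junction coverage, the summed reads of its exon events in CPM, was 8.18, 12.3 and 13.0 CPM in siQk and 90.8, 82.9 and 82.5 CPM in siNT, which leaves 13.1% (log2 fold change -2.91, SE 0.16, limma adjusted p = 0.000301). In bulk RNA, fewer cells with a transcript and less of it per cell cannot be told apart, for Qk and for exon inclusion alike. Besides Qk, 32 genes known to regulate microexons were listed. Coverage of Hnrnpk averaged only 0.570 CPM in siQk and 0.651 CPM in siNT, so its test says little of its expression. Of the 32, 24 could be tested, Hnrnpk among them. With limma none was higher in siQk and 1 was lower, Ptbp2, at 131 ± 2.64 CPM in siQk and 183 ± 10.7 CPM in siNT (SD, n = 3 each; log2 fold change -0.48, adjusted p = 0.0152), where 4.54% of 10851 genes passed; at an unadjusted p under 0.05, 3 were higher and 4 lower. The median log2 fold change was -0.04 over the 24 and 0.02 over all genes tested. The Ptbp2 call was lost without siQk replicate 2 (limma adjusted p = 0.0764), siQk replicate 3 (0.0920) or siNT replicate 2 (0.0614). The part of Ptbp2 in the exon results was not tested.

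The knockdown comparison asks which microexons depend on Qk. A member could be tested when its mean PSI lay between 2 and 98%, which left 238 members in 227 genes among 12930 cassette exons of all lengths. A call required a limma adjusted p under 0.05, on the log2 ratio of reads for and against inclusion, with mean PSI differing by at least 10 percentage points. Called members, and the largest differences not called, were thus picked by their values in these same samples. Where their groups do not overlap, that is description and no further support. The share of all tested exons without overlap is not given here. Of the 238 members, 11 were called (4.62%), where 1.18% of all cassette exons tested were called. By direction, 6 members rose in siQk (2.52%, against 0.75% of all) and 5 fell (2.1%, against 0.425% of all). In the list 19 of 172 tested microexons were called (11%), all 19 higher in siQk. At an unadjusted p under 0.05, 66 listed microexons were higher and 5 lower. The list was deposited with siNT and siQk values, and whether these served to draw it up is not known here. Longer exons were called in 122 of 12520 cases (0.974%). At an unadjusted p under 0.05 there were 58 members (24.4%, 46 higher and 12 lower in siQk). Of all cassette exons tested there were 1169 (9.04%, 619 higher and 550 lower in siQk). By size alone, 22 members (9.24%) differed by at least 15 points, 18 of them higher in siQk, where 2.51% of all cassette exons did. The count of 11 fell to 7 without siQk replicate 3, the only sample whose removal moved it by over 1.5 times. Leaving out siQk replicate 2, siQk replicate 3, siNT replicate 1 or siNT replicate 3 took the 5 lower calls to 3, 2, 3 and 3, and leaving out siNT replicate 2 took the 6 higher calls to 4.

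The median difference of mean PSI (siQk minus siNT) over the 238 members was 0.70 points, with 137 above 0 and 101 below, against 0.04 points over all cassette exons tested and 5.28 points over the list. Of the 238, 202 stayed within 10 points, with a median of 0.30 points. By frame, 10 of 161 frame-keeping members were called (5 higher, 5 lower) and 1 of 77 frame-shifting members, the Nrxn2 exon. Only 11 of the 77 frame-shifting members had an unadjusted p under 0.05, and these were all higher in siQk. Over all cassette exons tested, 619 were higher and 550 lower at that threshold. By annotation, 8 of 118 coding members were called, 1 of 6 partly coding ones and 2 of 96 without these ends in M21. The median reads per tested member were 74.5, 57.5 and 159 in siQk and 132.5, 84.5 and 173 in siNT.

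**Figure D2:**
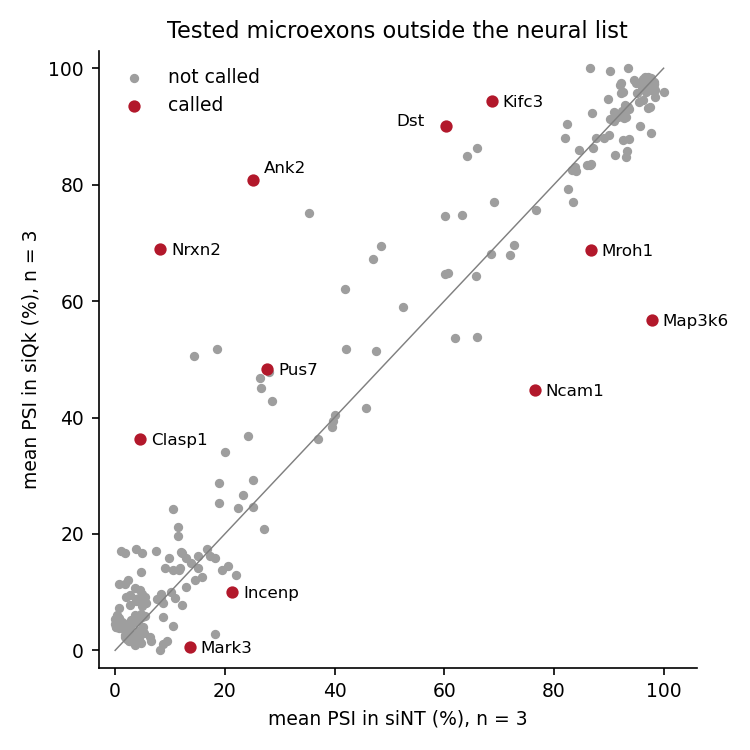
Mean PSI in siQk and siNT (n = 3 each, in %) of the tested microexons outside the list, with the 11 called ones marked and named. Most points lie near the diagonal, and Nrxn2 and Ank2 are farthest above it.

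The largest rise was in Nrxn2. The exon of Nrxn2, which encodes the presynaptic adhesion protein neurexin 2, is 17 nt long, shifts the frame and has no entry with these ends in M21. Its PSI was 73.7, 63.4 and 69.9% in siQk against 7.03, 10.0 and 7.78% in siNT. Every siQk sample was thus over 60% and no siNT sample over 10%, a difference of means of 60.7 points (limma adjusted p = 0.000119). The form with this exon was the main one in siQk and rare in siNT, on 43 to 301 reads per sample.

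Ank2 encodes ankyrin-B, which ties membrane proteins to the spectrin skeleton. Its coding 12 nt exon had a PSI of 86.2, 81.5 and 74.9% in siQk and 32.3, 20.2 and 23.1% in siNT. The groups lay over 40 points apart at their nearest, and the means were 80.9 ± 5.70% in siQk and 25.2 ± 6.35% in siNT (SD, n = 3 each; limma adjusted p = 0.00102).

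Clasp1 encodes a protein that stabilises the plus ends of microtubules. Its coding 24 nt exon had a PSI of 44.2, 34.3 and 30.6% in siQk and 6.44, 4.16 and 3.22% in siNT, with no overlap (limma adjusted p = 0.000826). Longer cassette exons of the gene rose as well. A 48 nt exon averaged 24.7 ± 1.82% in siQk and 5.59 ± 1.54% in siNT (limma adjusted p = 0.00341), and a 108 nt exon 40.0 ± 0.391% in siQk and 16.4 ± 2.13% in siNT (limma adjusted p = 0.00306; SD, n = 3 each).

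Dst encodes dystonin, a large linker between actin, microtubules and intermediate filaments. Its coding 18 nt exon had a PSI of 88.5, 93.1 and 88.3% in siQk and 61.4, 57.1 and 62.6% in siNT (limma adjusted p = 0.00499). The groups were separate by over 25 points. A 111 nt exon further along the gene moved the other way, at 12.1 ± 0.931% in siQk and 57.4 ± 3.72% in siNT (SD, n = 3 each; limma adjusted p = 2.52e-05).

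The other microexons that rose were in Kifc3 and Pus7. Kifc3 encodes a minus-end directed kinesin motor, and its partly coding 27 nt exon (chr8:95100647-95100673, minus strand) had a PSI of 91.5, 94.8 and 96.8% in siQk and 71.5, 65.5 and 69.3% in siNT (limma adjusted p = 0.00738). Pus7 encodes a pseudouridine synthase, and its coding 18 nt exon had a PSI of 44.3, 51.6 and 49.3% in siQk and 26.8, 24.7 and 31.9% in siNT (limma adjusted p = 0.0221). In both genes the lowest siQk sample was above the highest siNT sample. The Kifc3 call was lost without siNT replicate 2 (limma adjusted p = 0.0665). The Pus7 call was lost without siQk replicate 2 (0.109), siQk replicate 3 (0.109), siNT replicate 1 (0.0971) or siNT replicate 2 (0.123, all limma adjusted p).

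Ncam1 was among the members that fell. It encodes the neural cell adhesion molecule, and the exon is a triplet of 3 nt (chr9:49540415-49540417, minus strand) with no entry with these ends in M21. Its PSI was 45.3, 42.9 and 46.0% in siQk and 75.9, 77.1 and 76.7% in siNT. The means were 44.7 ± 1.61% in siQk and 76.5 ± 0.588% in siNT (SD, n = 3 each; limma adjusted p = 0.00119), so that the form without the triplet became the more common one in siQk. Junction coverage of Ncam1 was also lower in siQk (log2 fold change -0.34, limma adjusted p = 0.0498), and its part in the exon result was not tested.

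Mark3 and Map3k6 encode protein kinases, the first of microtubule-associated proteins and the second of a stress-activated MAP kinase cascade. The 27 nt coding exon of Mark3 had a PSI of 0, 1.51 and 0.32% in siQk and 15.4, 12.5 and 12.8% in siNT (limma adjusted p = 0.00701), so it was nearly absent from siQk cells. The 24 nt coding exon of Map3k6 had a PSI of 57.8, 68.7 and 43.8% in siQk and 98.2, 100 and 95.4% in siNT (limma adjusted p = 0.00895). Its siQk samples were far from each other and rested on 37, 20 and 124 reads. Leaving out siQk replicate 3 ended the Map3k6 call (limma adjusted p = 0.0836), and leaving out siNT replicate 2 ended the Mark3 call (limma adjusted p = 0.0574). Junction coverage of Map3k6 was higher in siQk (log2 fold change 0.58, limma adjusted p = 0.0243) and that of Mark3 had a log2 fold change of -0.36 (limma adjusted p = 0.0531). Map3k6 and Ncam1 were the only genes of the 11 whose coverage passed the threshold.

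The Incenp and Mroh1 calls were lost under several alternatives. Incenp encodes the inner centromere protein of the chromosomal passenger complex, and its coding 12 nt exon had a PSI of 9.88, 10.96 and 9.39% in siQk and 23.0, 16.6 and 24.6% in siNT (limma adjusted p = 0.0252). The coding 27 nt exon of Mroh1 had a PSI of 63.8, 72.3 and 70.4% in siQk and 91.3, 81.6 and 87.1% in siNT (limma adjusted p = 0.0473). In neither gene did the groups overlap. The Incenp call was lost without siQk replicate 2 (limma adjusted p = 0.0677), siQk replicate 3 (0.126), siNT replicate 1 (0.117) or siNT replicate 3 (0.145). The Mroh1 call was lost without siQk replicate 1 (0.0991), siQk replicate 2 (0.108), siQk replicate 3 (0.147), siNT replicate 1 (0.134) or siNT replicate 3 (0.167). It was also lost with the replicate number as a block (limma adjusted p = 0.0651), and both calls were lost when limma was run on PSI in percent (0.130 for Incenp and 0.0944 for Mroh1).

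**Figure D3:**
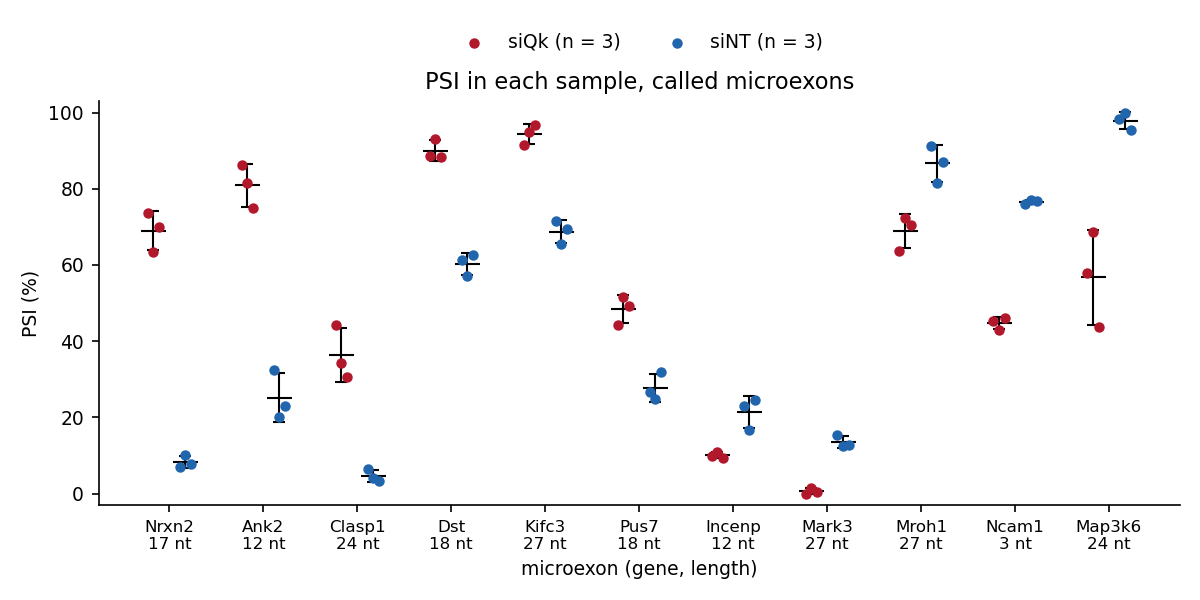
PSI in % of the 11 called microexons in each of the 3 siQk samples and the 3 siNT samples, with the mean and the SD as bars. No siQk point overlaps the siNT points of the same exon, but the exons were called on these same values.

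The 10 largest differences that missed the threshold all had the higher mean in siQk, with limma adjusted p-values from 0.0879 to 0.554. Several were large but rested on few reads. The 9 nt exon of Myo6, an unconventional myosin, had a PSI of 75.9, 70.8 and 78.7% in siQk and 48.5, 13.0 and 44.7% in siNT, on 10 to 24 reads per sample (limma adjusted p = 0.310). The 9 nt exon of Ppfia2, which encodes the presynaptic scaffold liprin-alpha-2, had a PSI of 31.4, 58.9 and 61.3% in siQk and 17.8, 0 and 25.2% in siNT on 19 to 51 reads (limma adjusted p = 0.318). The groups did not overlap in either gene, but the replicates were far apart. Without the filter on mean PSI, limma called the Ppfia2 exon (adjusted p = 0.0431). That fit also called a 10 nt exon of the translation factor gene Eif4g1 (34.1 ± 5.33% in siQk and 19.99 ± 3.02% in siNT, adjusted p = 0.0363). A 15 nt exon of Arhgef10l was called too (16.7 ± 15.1% in siQk and 1.72 ± 1.81% in siNT, adjusted p = 0.0337, SD, n = 3 each). The filter had not held these exons out: their limma adjusted p in the main fit was 0.318, 0.0835 and 0.274. The fit without it shares its variance trend over all 109572 exons, and there the Myo6 exon had a limma adjusted p of 0.912. The 14 calls of that fit are 0.765% of the 1831 members, where 0.16% of all 109572 exons were called.

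Among the other large differences, the 27 nt exon of Espn, an actin-bundling protein, averaged 51.7 ± 15.9% in siQk and 18.7 ± 7.44% in siNT (SD, n = 3 each). The 12 nt exon of Adgrl2, the adhesion receptor latrophilin-2, averaged 69.4 ± 5.93% in siQk and 48.5 ± 8.29% in siNT. Besides the 24 nt exon of Clasp2, described with its sister gene, the remaining ones were the 12 nt exon of Phactr2, the 15 nt exon of Rapgef6, the 21 nt exon of the ciliary motor gene Dync2h1, and the 9 nt exons of the scaffold gene Cask and of Mtss1l. The differences of these 5 ran from 20.2 points for Mtss1l to 20.7 points for Phactr2. Groups overlapped in Cask (82.3, 51.5 and 68.0% in siQk against 48.9, 54.0 and 38.0% in siNT) and in Mtss1l (64.2, 48.8 and 73.5% against 51.7, 32.9 and 41.3%), and junction coverage of Mtss1l was lower in siQk (log2 fold change -0.74, limma adjusted p = 0.0297).

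**Figure D4:**
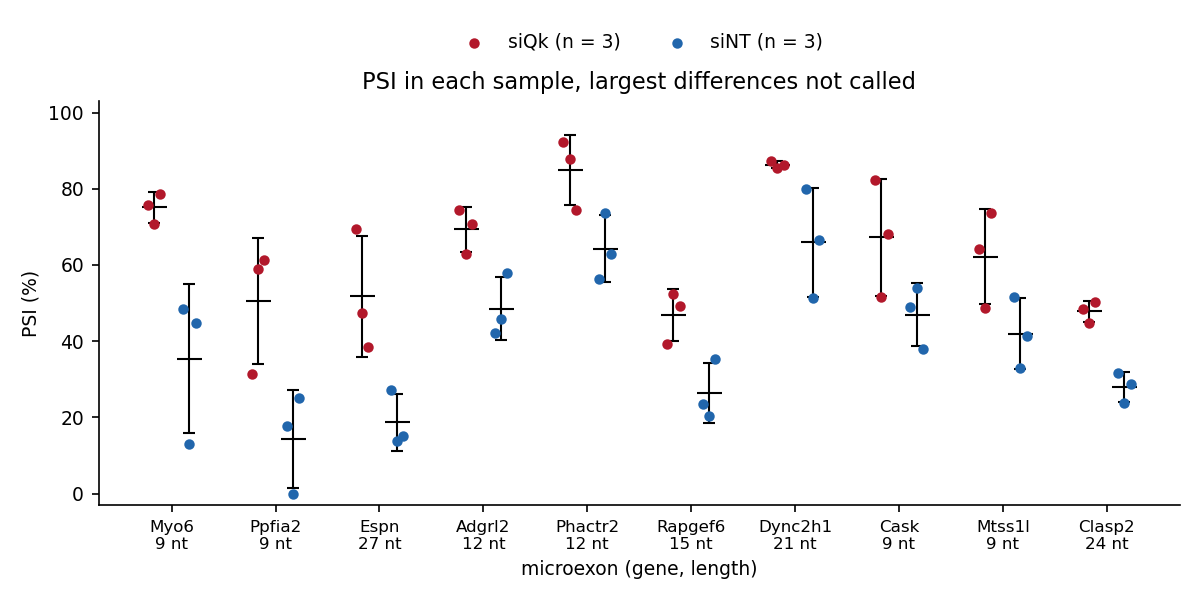
PSI in % of the 10 microexons with the largest differences of mean PSI that were not called, in each of the 3 siQk and the 3 siNT samples, with the mean and the SD as bars. All means are higher in siQk, the groups of Cask and Mtss1l overlap, and the siNT points of Myo6 run from 13.0 to 48.5%.

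The sister genes of Clasp1 and Mark3 were looked up after the values had been seen. The 24 nt exon of Clasp2 averaged 47.9 ± 2.79% in siQk and 28.03 ± 3.99% in siNT (SD, n = 3 each), with no overlap but a limma adjusted p of 0.0879; it passed with limma on PSI in percent (0.0273) and with weights from the sampling variance (0.0466). It shares 13 of its 24 bases with the Clasp1 exon, 13 of the 15 bases before it but only 1 of the 15 after it, without gaps. Both genes also hold a 3 nt exon that was mostly included and whose groups did not differ beyond their spread: 91.6 ± 3.16% in siQk and 91.7 ± 2.09% in siNT for Clasp1, and 87.7 ± 1.52% in siQk and 92.7 ± 4.67% in siNT for Clasp2 (limma adjusted p = 0.998 and 0.604). The 27 nt exon of Mark2 matches the Mark3 exon at 21 of 27 bases, but at only 7 of the 15 bases before it and 6 of the 15 after it. It averaged 8.98 ± 2.33% in siQk and 10.9 ± 2.50% in siNT (limma adjusted p = 0.864), where the Mark3 exon averaged 0.61 ± 0.796% in siQk and 13.6 ± 1.62% in siNT (SD, n = 3 each); whether the responses of the sister exons differ was not tested.

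Gene lists written with earlier results of these data known were counted over the tested members. A share of calls or a median in such a list is therefore description only. Set beside all exons, it does not test whether the list responds more. The cytoskeleton and adhesion list had 70 members in 34 genes, 41 of them under 2% and 7 over 98%, and 22 could be tested. Of these, 7 were called, where 1.18% of all cassette exons and 4.62% of all tested members were, with Ank2, Clasp1, Dst, Kifc3 and Nrxn2 higher in siQk and Mark3 and Ncam1 lower, and the median difference was 7.33 points where it was 0.70 points over all tested members. At an unadjusted p under 0.05, 10 were higher and 2 lower. The other 15 ran from -4.94 to 39.7 points, and 10 of them lay above 0. Kinases and GTPase signalling had 2 called of 7 tested, Map3k6 and Mark3, both lower in siQk (1 higher and 2 lower at an unadjusted p under 0.05). Endocytosis and vesicle traffic had 0 called of 6 with limma (1 lower at an unadjusted p under 0.05; median -0.86 points), and chromatin and transcription 0 of 2 (1 higher at an unadjusted p under 0.05; median 5.23 points). Mark3 counts in 2 of these lists.

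The cycloheximide comparison asks which isoforms differ when translation is blocked. The authors' deposited table holds 2455 distinct exons, and 430 of the members matched one by chromosome, start and end. An exon passed where the authors' deposited table gives a difference of 10 points or more and a probability of 0.9 or more, and 42 members did (9.77%), where 9.33% of all its exons did. By direction, 5 members were higher with cycloheximide (1.16%, against 2.2% of all) and 37 lower (8.6%, against 7.13% of all). Over all matched members, at any level, the share was thus close to that of the table as a whole. Of 165 listed neural microexons, 51 passed (30.9%), 1 higher (0.606%) and 50 lower (30.3%). Among exons of 2 to 98% in untreated neurons in the authors' deposited table, the median difference (cycloheximide minus untreated) was -2.01 points over 167 members, -8.38 points over 124 listed microexons and -1.45 points over all 1188. In that range 39 of the 167 members passed, 48 of the 124 listed microexons and 215 of all 1188.

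Most of the members that passed keep the reading frame, as do most matched members (257 of 430). Of the members in the authors' deposited table, 33 of 257 frame-keeping members passed, 3 higher and 30 lower with cycloheximide, and 9 of 173 frame-shifting members passed, 2 higher and 7 lower. The largest difference was in the 26 nt frame-shifting exon of the splicing-factor kinase gene Srpk2 (chr5:23526790-23526815), listed in the authors' deposited table at 0.337% with cycloheximide and 99.7% without. That exon was nearly constitutive in N2A cells, at 97.5 ± 1.91% in siQk and 98.6 ± 0.334% in siNT (SD, n = 3 each).

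Members rare in N2A cells were among those that differed most. The 24 nt exon of Csnk1g1, a casein kinase 1, was at 4.01% with cycloheximide and 70.5% without in the authors' deposited table, and under 4% in each N2A sample. The 12 nt exon of Bicdl1, a dynein adaptor, was at 17.3% with cycloheximide and 81.0% without in the authors' deposited table, and averaged 8.82 ± 2.73% in siQk and 3.80 ± 1.17% in siNT. A 27 nt exon of Clasp2 was at 49.2% with cycloheximide and 82.0% without in the authors' deposited table, and under 1% in each N2A sample. All 3 keep the frame and are coding.

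The others of the 10 largest differences ran in both directions. Higher with cycloheximide was the 21 nt exon of Pcnt, the centrosome protein pericentrin, at 93.9% with the drug and 49.0% without in the authors' deposited table. Lower were exons of Hnrnpc (26 nt, 32.0% with the drug and 82.5% without), Rrp1b (20 nt, 45.4% and 90.6%), Phactr2 (12 nt, 20.5% and 63.8%), the cadherin gene Celsr3 (15 nt, 37.7% and 76.6%) and the clathrin adaptor gene Ap1g1 (9 nt, 57.7% and 91.3%), each from the authors' deposited table. Neither the Hnrnpc nor the Rrp1b exon has a length that is a multiple of 3, and M21 places the Hnrnpc exon in a non-coding part of a coding transcript.

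Of the 11 members called in the knockdown, 6 were matched. By the values of the authors' deposited table, 3 of them passed, all lower with cycloheximide: Dst at 2.54% with the drug and 13.2% without, Mark3 at 11.1% and 26.5%, and Pus7 at 38.9% and 67.5%. Ank2 was at 34.6% with the drug and 35.6% without, Kifc3 at 99.5% and 99.3%, and Mroh1 at 6.18% and 3.63% in the authors' deposited table, and these did not pass. The Mark2 exon passed as well, at 3.16% with the drug and 19.8% without in the authors' deposited table.

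Levels in untreated neurons and in siNT N2A cells could be set side by side, but they come from tables made in different ways, so that cell type and processing cannot be told apart. Of 87 matched members under 2% in N2A cells, the authors' deposited table lists 9 over 50% in untreated neurons, 31 at 2 to 50% and 47 under 2%. Of 219 matched members over 98% in N2A cells, it lists 199 over 90%, 11 at 10 to 90% and 9 under 10%. Most matched members over 98% in N2A cells were thus over 90% in neurons. Those under 2% were split, with 47 of 87 also under 2% in neurons. The 87 are a small part of the 1282 members under 2%.

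The 5 members with the largest gap upward, untreated neurons over siNT, were all coding in M21. The authors' deposited table lists the 3 nt exon of Cyth2, an activator of ARF GTPases, at 97.6% in untreated neurons, and N2A samples were at 0% in all 3 siQk samples and 0.06, 0 and 0% in siNT. The 6 nt exon of Snap91, a clathrin assembly protein of synaptic vesicles, is at 97.3% in the authors' deposited table, with no inclusion read among 2545 in the 6 N2A samples, which allows a PSI of up to 0.118%. The 12 nt exon of Cacna1b, the N-type calcium channel, is at 94.6% in the authors' deposited table, and N2A samples were at 0, 10.6 and 0% in siQk and 0% in all 3 siNT samples. The 5 nt exon of the septin gene Sept7 (chr9:25265302-25265306) is at 96.5% in the authors' deposited table, with no inclusion read among 313 in N2A cells, which allows up to 0.958%. The 21 nt exon of the teneurin gene Tenm4 is at 95.3% in the authors' deposited table and averaged 17.4 ± 3.25% in siQk and 3.86 ± 3.33% in siNT (SD, n = 3 each).

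The 5 members with the largest gap downward were all over 98% in siNT cells. They were the 27 nt exon of Madd (0.115% in untreated neurons in the authors' deposited table, 100% in siNT), the 15 nt exon of Fuca1 (0.203% and 100%), the 16 nt exon of Glg1 (0.172% and 99.8%), the 14 nt exon of Gapvd1 (0.290% and 99.5%) and the 16 nt exon of Hnrnpk (0.0218% and 98.6%). The N2A values rest on 198 to 5093 reads over the 6 samples. M21 places the Madd and Fuca1 exons in non-coding transcripts and the Gapvd1 exon in a non-coding part of a coding transcript.

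**Figure D5:**
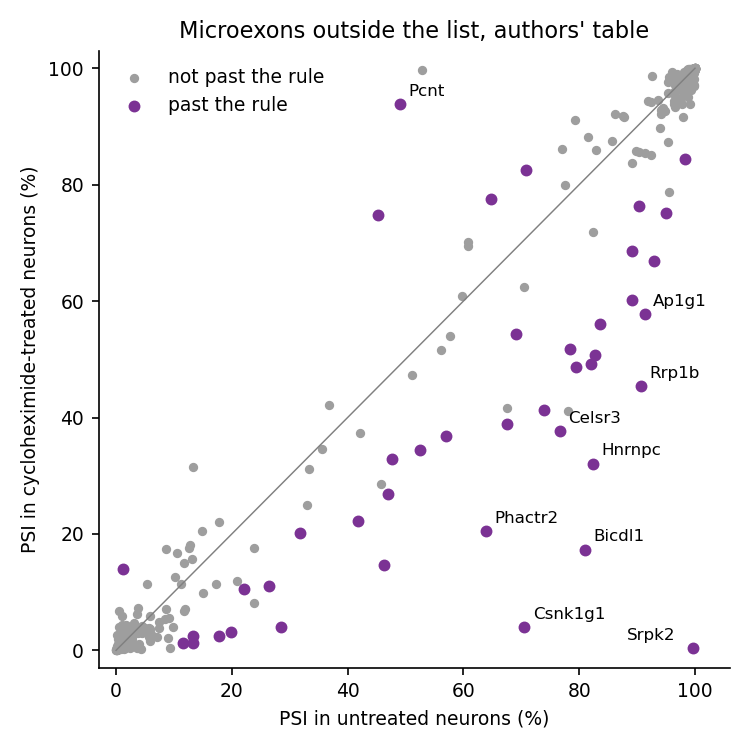
PSI in % of the matched microexons outside the list in the authors' deposited table, with cycloheximide against without, with those past the rule marked. The 37 lower microexons lie below the diagonal, with Srpk2 in the corner of 99.7% without and 0.337% with the drug, and Pcnt is the highest above it.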

How the data were processed

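The authors deposited, per the file headers, the percent spliced in of every exon event in each N2A sample, and text cells (values of another kind) from which the reads for inclusion and for exclusion were taken. The list of neural microexons, deposited by the authors with PSI as a fraction, was used to leave exons out and as a set to compare with, its deposited values unused. Those values are of siNT and siQk, with their difference. How the list was chosen is not known here, so it may not be independent of the N2A samples. For neurons the authors deposited PSI as a fraction per condition and a probability score; the column listed first was read as untreated, since the name of that table starts with the control. The genome build of all coordinates is mm10 per the submitters' processing notes, and no software is named in the sources used here.

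Exons with at least 10 reads in each N2A sample and a mean PSI of 2 to 98% were compared in R 4.3.3 by a two-sided, robust moderated test of limma 3.58.1 with a variance trend on the log2 ratio of reads for and against inclusion, each plus 0.5. P-values were adjusted by Benjamini-Hochberg over all 12930 exons. Reads summed per gene and divided by the sample total stood in for gene counts (log2(CPM + 0.5), limma trend, genes with a mean of 20 reads or more); a read can serve several events, and fold changes on this scale understate changes of low genes. An alternative scaled totals by a trimmed mean of log ratios. Tables and figures were made with version 1.17.8 of data.table, Python 3.11.15, pandas 2.3.3 and matplotlib 3.10.9. The fits were tested on simulated data. Exon-event reads numbered 33761573, 26595944 and 80481173 in siQk and 59997671, 37883497 and 78479832 in siNT.

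The members, gene lists and tests were chosen with earlier results of these data known. Named were all called members, the 10 largest differences not called, the 10 largest neuron differences past the rule, and the 5 members with the largest gap in each direction between untreated neurons and siNT; genes named outside this rule were Mark2, Eif4g1, Arhgef10l, the 3 nt exons of Clasp1 and Clasp2 and, in the closing section, Fbxl20 and Wnk1. Some exon sequences are not reported here.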

Additional observations from a re-analysis of the deposited data

How the results depend on the processing

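The 11 calls stayed within 1.5 times under most alternatives: 14 without the filter on mean PSI, 11 with limma on PSI in percent, 13 with sampling variance weights, 12 by adjusted p alone, 11 with a pseudocount of 1 and 11 with a minimum of 20 reads. A difference of 15 points without a p-value gave 22 members (9.24%, against 2.51% of all exons), 18 of them higher in siQk, and kept 9 of the 11. With limma on PSI in percent 3 members were lower, not 5, and 9 of the 11 calls were shared; the cause was not tested. Leaving out 1 sample gave 7 to 10 calls, with 4 to 6 higher and 2 to 4 lower; the Nrxn2, Ank2, Clasp1, Dst and Ncam1 calls were kept in all 6 such fits. Among the 11 called members and the 10 largest not called, no direction could change in fits of 6 samples, where mean PSI is fixed. On leaving out 1 sample, only Cask and Mtss1l, whose groups overlap, could have changed direction, and neither did. Under the alternatives with a p-value, calls gained were Clasp2, Fbxl20, Eif4g1, Arhgef10l, Ppfia2 and Wnk1.

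With the replicate number as a block, 10 members were called, without Mroh1, and 5 microexon regulators passed in place of 1 (Mbnl1 and Rbfox1 higher, Celf1, Ptbp2 and Srrm4 lower). Same-numbered samples correlated at 0.139, 0.0193 and 0.116 in their deviations, not all over 0.1, so the numbers were not taken as pairs, and not every sample correlated best with its own number. Leaving out 1 sample gave 0 to 4 regulators. The Qk log2 fold change ran from -3.03 to -2.71 over its alternatives. In neurons 30 members passed at 15 points, 37 at a probability of 0.95 and 42 with ends matched within 3 nt, against 42.

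Reads were few for some exons, with 10 to 24 per sample for that of Myo6. The labels describe no molecular identifiers. The p-values rest on the spread of 3 cultures per group, moderated by a variance trend over all exons or genes tested. The neuron values have no spread, so no test of them was possible here. The planned search of the flanking introns for the motif cores of Qk and Rbfox, with its window sizes, was not run.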
